A study of Mus musculus with 18 samples.

Results

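The unfolded protein and amino acid response was described through 45 genes taken as a gene list: 14 chaperones and folding enzymes of the endoplasmic reticulum (ER), 6 sensors and genes of ER-associated degradation, 7 genes for ATF4 and stress effectors, 9 enzymes of amino acid and one-carbon metabolism, and 9 cytosolic tRNA synthetases. Each gene was represented by 1 probe, the one with the highest mean signal in the authors' log2 table. Of the 45 genes 44 had a probe, and 41 passed the detection filter, among 8962 genes tested of 19057 with a symbol on the array. Expression of Dnajb11 was not analysed here, and Canx, Psph and Yars were above the detection limit on 0, 0 and 1 arrays, too few to be kept.

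Messenger RNA was measured on 18 Illumina mouse bead arrays of mast cells from Dnmt3a knockout (KO) and wild-type (WT) mice, Dnmt3a being an enzyme that sets new DNA methylation. The tested conditions were KO and WT cells kept 4 h or 24 h with IgE and antigen, which activates mast cells through their high-affinity IgE receptor, and untreated cells of both genotypes, with 3 arrays in each of the 6 groups. All samples are labelled female and 5 weeks, without saying whether the mice or the cultures had that age. KO cultures 3, 4 and 6 and WT cultures 6, 8 and 9 each gave 1 array per condition; the numbers are read as cultures, and the same number in both genotypes does not join them. KO 3 shared slide 1 with WT 6, KO 4 shared slide 2 with WT 8, and KO 6 shared slide 3 with WT 9. The labels name no allele, no Cre driver and no culture method, nor whether a culture came from 1 mouse. P-values without a block therefore rest on the spread between these cultures. Those with the replicate block, a term for each culture used below, rest on the spread left after each culture's own level is taken out. In what follows a level is a normalised log2 intensity, values of cultures come in the order just given, and a change or difference is on the log2 scale.

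Proteins that enter the secretory pathway fold in the ER with the help of chaperones. When unfolded proteins build up there, the sensors IRE1 (Ern1), ATF6 and PERK start the unfolded protein response (UPR): IRE1 splices the mRNA of Xbp1, ATF6 is cleaved to a transcription factor, and PERK phosphorylates eIF2alpha, which lowers general translation while favouring that of ATF4. The kinase GCN2, which senses uncharged tRNA, reaches ATF4 by the same phosphorylation, and ATF4 in turn activates genes for amino acid synthesis and uptake and for tRNA charging. Mast cells carry large stores of granule proteases and make cytokines after activation, both of which pass through the ER.

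Facts of the whole series that bear on these values were few. Median raw signals per array lay between 93.4 and 159, and 28.7% to 33.8% of probes were above the detection limit. None of the 3 Dnmt3a probes was above that limit on any array (0 of 18), so the targeted gene gave no check of the genotype labels. Of 12 mast cell markers 11 were measured, with summed linear signals of 95829 to 136823 on KO arrays and 110961 to 143308 on WT arrays. Markers of other cells were mostly below the limit: 3 of 10 for macrophages, 1 of 8 for neutrophils, 3 of 4 for basophils, 1 of 9 for plasma and B cells, 0 of 7 for T and NK cells and 5 of 7 for erythroid cells were measured. The erythroid sum was 3042 to 26127 on KO arrays at 24 h, above the 827 to 2443 of untreated KO arrays, and 1644 to 9783 at 24 h against 1350 to 2381 untreated on WT arrays. The basophil sum was lower in stimulated than in untreated cells (KO 6114 to 8236 at 24 h against 8658 to 11519; WT 6081 to 8666 against 9794 to 12016), and the macrophage sum was higher in untreated KO (716 to 1121) than in untreated WT arrays (525 to 705). The part of these cells in the changes below was not tested, and fewer cells of a type cannot be told apart from less RNA per cell.

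Few members passed the test after stimulation. The fit took all 18 arrays with 6 group means in limma, and a gene was called at an adjusted p of 0.05 or less over all genes. In KO cells 0 of 41 members were called at 4 h (0.815% of all genes), at 24 h (0.257%) and between 24 h and 4 h (0.748%); 6, 14 and 5 members had an unadjusted p under 0.05, against 16.9%, 13.7% and 17.6% of all genes. In WT cells 0 members were called at 4 h (1.79% of all genes), 1 at 24 h (0.692%), which was Gcat, and 1 between 24 h and 4 h (5.57%), which was Pdia4. At an unadjusted p under 0.05 there were 8, 10 and 9 members in WT cells, against 19.6%, 15.7% and 25.1% of all genes.

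Arrays of 1 culture deviated together from their group means (correlations of 0.134 to 0.625 in all 18 pairs, median 0.362). Arrays of the other genotype on the same slide had a similar median of 0.328 over 27 pairs, with a range of −0.190 to 0.750. Each culture lay on 1 slide, so the shared deviation is not particular to a culture. Taking the culture as a replicate block raised most counts of members called along with those of all genes. With that block 0 members were called in KO cells at 4 h (4.69% of all genes), 3 at 24 h (3.17%) and 2 between 24 h and 4 h (6.4%). The same fit called 4 members in WT cells at 4 h (8.52%), 3 at 24 h (4.69%) and 7 between 24 h and 4 h (17.8%). With the slide as a block the counts were 0 (5.58% of all genes), 3 (3.87%) and 4 (7.11%) in KO cells and 4 (9.73%), 4 (5.23%) and 8 (18.8%) in WT cells. The share of members called was near that of all genes in both block fits at 4 h in WT cells. The same held between 24 h and 4 h in both genotypes. At 4 h in KO cells it was below the share of all genes. At 24 h the calls rested on 3 or 4 members. In KO cells these included Chac1, which passed the detection filter mainly through stimulated arrays.

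The members' median changes were above those of all genes after stimulation. The median change over the 41 members was 0.35 in KO cells at 4 h (32 of 41 positive) and 0.42 at 24 h (33 of 41), and in WT cells 0.41 at 4 h (30 of 41) and 0.36 at 24 h (32 of 41). Over all genes the median was between −0.04 and 0.00 in these comparisons. Scaling arrays to a common median moved the 24 h median of all genes to 0.14 in KO cells and 0.26 in WT cells. Relative to it the members' medians were 0.48 in KO cells and 0.43 in WT cells, and 0.42 and 0.38 with the quantile normalisation used elsewhere. The 6 members below the limit on some arrays (Hyou1, Atf6, Trib3, Chac1, Phgdh and Cth) entered the filter partly through the groups in which they are high, so these medians are a description of the measured members only.

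**Figure D1:**
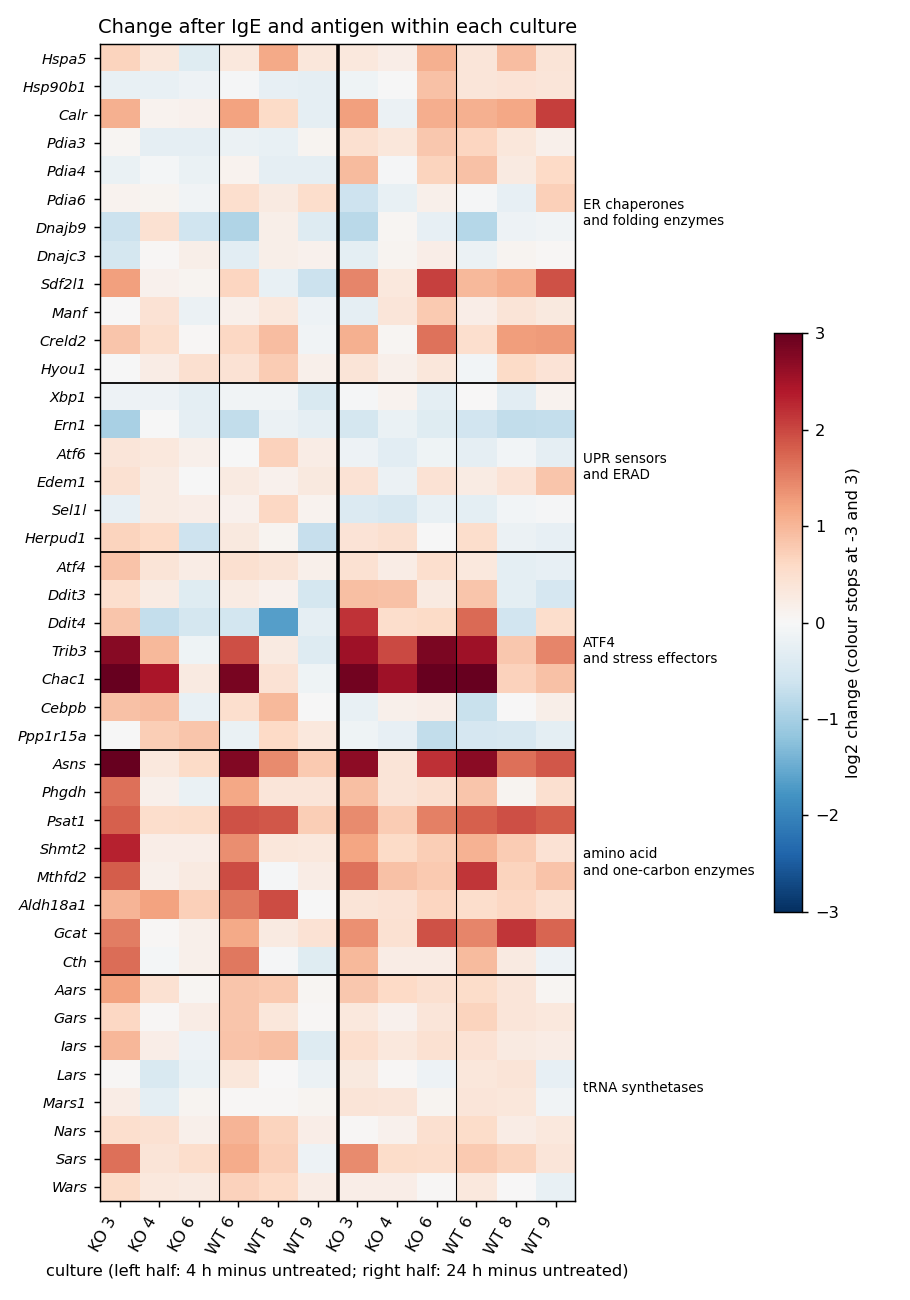
Log2 change after IgE and antigen within each culture for the 41 measured members, in rows ordered by role, with 4 h minus untreated on the left, 24 h minus untreated on the right, and KO cultures left of WT cultures in each. Red is higher and blue is lower after stimulation; Chac1, Trib3 and Asns hold some of the darkest cells.

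Among the 12 measured ER chaperones and folding enzymes the medians were near 0 at 4 h and positive at 24 h. They were 0.06 at 4 h and 0.41 at 24 h in KO cells, and 0.05 at 4 h and 0.38 at 24 h in WT cells, with 9 of 12 positive at 24 h in KO cells and 10 of 12 in WT cells. Within WT cultures 6, 8 and 9 the 24 h medians were 0.36, 0.40 and 0.41. Those of KO cultures 3, 4 and 6 were spread more widely, at 0.35, 0.06 and 0.80. Only Pdia4 passed the test, between the 2 stimulated times in WT cells.

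Pdia4 (probe ILMN_1249670) encodes a protein disulfide isomerase. Pdia4 levels in KO cultures 3, 4 and 6 were 9.80, 9.95 and 9.65 untreated, 9.60, 9.89 and 9.45 at 4 h, and 10.74, 9.92 and 10.31 at 24 h. Its levels in WT cultures 6, 8 and 9 were 9.49, 9.91 and 9.67 untreated, 9.60, 9.65 and 9.39 at 4 h, and 10.36, 10.19 and 10.27 at 24 h. In WT cells every 24 h array was above every 4 h and every untreated array, whereas in KO cells the 24 h arrays were all above the 4 h arrays but KO 4 at 24 h lay below its own untreated level. Pdia4 rose between 4 h and 24 h in WT cells by 0.73 ± 0.19 (SE), or 1.65-fold, with adjusted p = 0.0398 (0.0246 with the replicate block); the change between the same times in KO cells was 0.68 ± 0.19 with adjusted p = 0.0979. The call was lost without any 1 WT culture, without KO 6 and without slide 1, and the change stayed between 0.65 and 0.82 when single cultures were left out.

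Calr, a calcium-binding lectin chaperone, had a larger but more variable change. KO cultures 3, 4 and 6 had Calr at 8.33, 9.54 and 8.79 untreated, 9.39, 9.64 and 8.92 at 4 h, and 9.56, 9.37 and 9.87 at 24 h. The WT arrays gave 8.14, 8.96 and 8.45 untreated, 9.35, 9.53 and 8.18 at 4 h, and 9.21, 10.12 and 10.53 at 24 h. The 24 h and untreated arrays did not overlap in WT cells and did in KO cells, where KO 4 began high. The change at 24 h was 0.71 ± 0.40 in KO cells (adjusted p = 0.451) and 1.43 ± 0.40 in WT cells (adjusted p = 0.101, 0.0528 with the replicate block and 0.0347 with the slide block).

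Sdf2l1 and Creld2, both ER-resident proteins known to be induced by ER stress, also had their highest means at 24 h in both genotypes. The KO arrays gave Sdf2l1 levels of 8.18, 9.80 and 8.57 untreated, 9.41, 9.92 and 8.66 at 4 h, and 9.66, 10.11 and 10.62 at 24 h. In WT cultures 6, 8 and 9 it was at 8.34, 9.14 and 8.53 untreated, 8.98, 8.93 and 7.89 at 4 h, and 9.32, 10.23 and 10.43 at 24 h. In WT cells the 24 h arrays were above all 4 h arrays, a change of 1.39 ± 0.45 (adjusted p = 0.075, 0.0328 with the replicate block). In KO cultures 3, 4 and 6, Creld2 stood at 9.45, 9.98 and 9.44 untreated, 10.29, 10.50 and 9.48 at 4 h, and 10.52, 10.03 and 11.07 at 24 h. WT cultures 6, 8 and 9 had 9.49, 9.32 and 9.39 untreated, 10.12, 10.24 and 9.29 at 4 h, and 9.995, 10.56 and 10.66 at 24 h. Every 24 h array of Creld2 was above every untreated array in both genotypes; the changes were 0.91 ± 0.31 in KO cells (adjusted p = 0.208) and 1.01 ± 0.31 in WT cells (adjusted p = 0.14). The 4 h change of Sdf2l1 in WT cells, −0.07 ± 0.45, turned positive with median scaling (0.11) and without WT 9 (0.21).

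Among the other 8 measured members of this role, Hspa5 (BiP, the main ER Hsp70) had a change of 0.52 ± 0.30 in KO cells and 0.56 ± 0.30 in WT cells at 24 h, with adjusted p = 0.46 and 0.381. With the replicate block Hsp90b1, the ER Hsp90, passed between 24 h and 4 h in WT cells (0.56 ± 0.21 without the block, adjusted p = 0.0471 with it), and Pdia3, another disulfide isomerase, did so in KO cells (0.70 ± 0.24, adjusted p = 0.0306). Dnajb9 and Dnajc3, co-chaperones of BiP, had 24 h changes of −0.34 and −0.01 in KO cells and −0.36 and −0.02 in WT cells. Pdia6, Manf and Hyou1 lay between −0.23 and 0.30 at 24 h, and the 2 kept probes of Pdia6 disagreed in sign in KO cells (−0.23 for the one used and 0.45 for the other).

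Promoters of many ER chaperones are known to carry the ER stress response element, to which ATF6 binds with NF-Y. In RefSeq promoters of build GRCm38.p6, which run from 250 bases before to 50 bases after a gene's start and were given for 38 of the 45 members, the letters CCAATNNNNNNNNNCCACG were looked for on both strands. They occurred in 7 of 12 chaperone promoters (Hspa5, Hsp90b1, Calr, Canx, Pdia6, Dnajc3 and Creld2), in no promoter of the other roles, and in 0.137% of 27025 genes. The related ATTGGNCCACG, whose ends are the CCACG of the first motif and the reverse complement of its CCAAT, was in Dnajb11 and Herpud1 and in 0.0444% of genes. A match describes these letters and is not a binding site. The 2 members with a match among the named genes of this role are shown with the motif in capitals, read 5′ to 3′ along the gene, where the motif lies on the opposite strand.
Calr (chr8:84847055-84847113, minus strand): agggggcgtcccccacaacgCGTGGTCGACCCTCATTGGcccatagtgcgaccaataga
Creld2 (chr15:88819500-88819558, plus strand): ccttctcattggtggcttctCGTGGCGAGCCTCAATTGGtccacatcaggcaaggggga
Pdia4 and Sdf2l1 held no match in this window. Among the 6 measured genes with one, Hspa5, Hsp90b1, Calr and Creld2 had higher means at 24 h than untreated in both genotypes. Dnajc3 had a slightly lower mean in both, with a change of −0.01 in KO cells. Pdia6 changed by −0.23 in KO cells (0.45 by its other probe) and by 0.14 in WT cells. Whether a match goes with a change was not tested.

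The 6 sensors and degradation genes had no common direction. Their median change was 0.14 at 4 h and −0.14 at 24 h in KO cells, and 0.06 at 4 h and −0.10 at 24 h in WT cells; with median scaling the 24 h medians were 0.01 in KO cells and 0.23 in WT cells, which is −0.13 and −0.03 relative to all genes. Xbp1, the transcription factor activated by IRE1 through splicing, was above the limit on every array and did not pass the test. Xbp1 levels in KO cultures 3, 4 and 6 were 13.06, 12.80 and 13.12 untreated, 12.90, 12.64 and 12.84 at 4 h, and 13.03, 12.89 and 12.83 at 24 h. Its levels in WT cultures 6, 8 and 9 were 12.95, 13.16 and 12.84 untreated, 12.84, 13.05 and 12.38 at 4 h, and 12.97, 12.84 and 12.95 at 24 h. The groups overlapped throughout; splicing of its mRNA was not measured. The 24 h change of Xbp1 was −0.07 ± 0.17 in KO cells and −0.07 ± 0.17 in WT cells, and both turned positive with median scaling (0.18 and 0.22).

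Ern1, which encodes the sensor IRE1, was lower at 24 h than untreated in each of the 6 cultures. KO cultures 3, 4 and 6 had Ern1 at 10.01, 9.17 and 9.04 untreated, 9.04, 9.17 and 8.77 at 4 h, and 9.48, 8.98 and 8.68 at 24 h. The WT arrays gave 9.86, 9.71 and 8.94 untreated, 9.12, 9.54 and 8.67 at 4 h, and 9.28, 8.97 and 8.23 at 24 h. The groups overlapped, and KO 3, WT 6 and WT 8 had the highest untreated levels. The 24 h changes of −0.36 ± 0.33 in KO cells and −0.68 ± 0.33 in WT cells had adjusted p = 0.68 and 0.344; a second Ern1 probe gave smaller 24 h changes, −0.12 in KO cells and −0.03 in WT cells. At 4 h that probe gave 0.05 in KO and 0.04 in WT cells, where the one used gave −0.41 and −0.40. Edem1, which hands misfolded glycoproteins to degradation, was higher at 24 h than untreated in each WT culture. The KO arrays gave Edem1 levels of 7.58, 7.87 and 7.98 untreated, 8.03, 8.11 and 7.98 at 4 h, and 8.02, 7.71 and 8.41 at 24 h. In WT cultures 6, 8 and 9 it was at 7.87, 7.75 and 7.68 untreated, 8.15, 7.89 and 7.98 at 4 h, and 8.12, 8.15 and 8.52 at 24 h. Its 24 h change was 0.23 ± 0.17 in KO cells and 0.49 ± 0.17 in WT cells (adjusted p = 0.599 and 0.185). Atf6 was above the limit on 6 of 18 arrays, on 0 of 3 at 24 h and 2 of 3 at 4 h in each genotype. Its 4 h mean was 1.04-fold above the limit of the 24 h arrays in KO cells and 1.14-fold above it in WT cells. With only 2 of 3 arrays above the limit at 4 h, these folds are not lower bounds. The adjusted p between 24 h and 4 h with the replicate block was 0.0585 in KO cells and 0.0287 in WT cells. Atf6 passed the detection filter mainly through 4 h arrays, so these folds and p-values lend no support to a fall. Sel1l and Herpud1, which act in ER-associated degradation, had 24 h changes of −0.38 and 0.30 in KO cells and −0.13 and 0.04 in WT cells, and their probes disagreed in sign in 3 and 1 of the 4 stimulation comparisons.

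**Figure D2:**
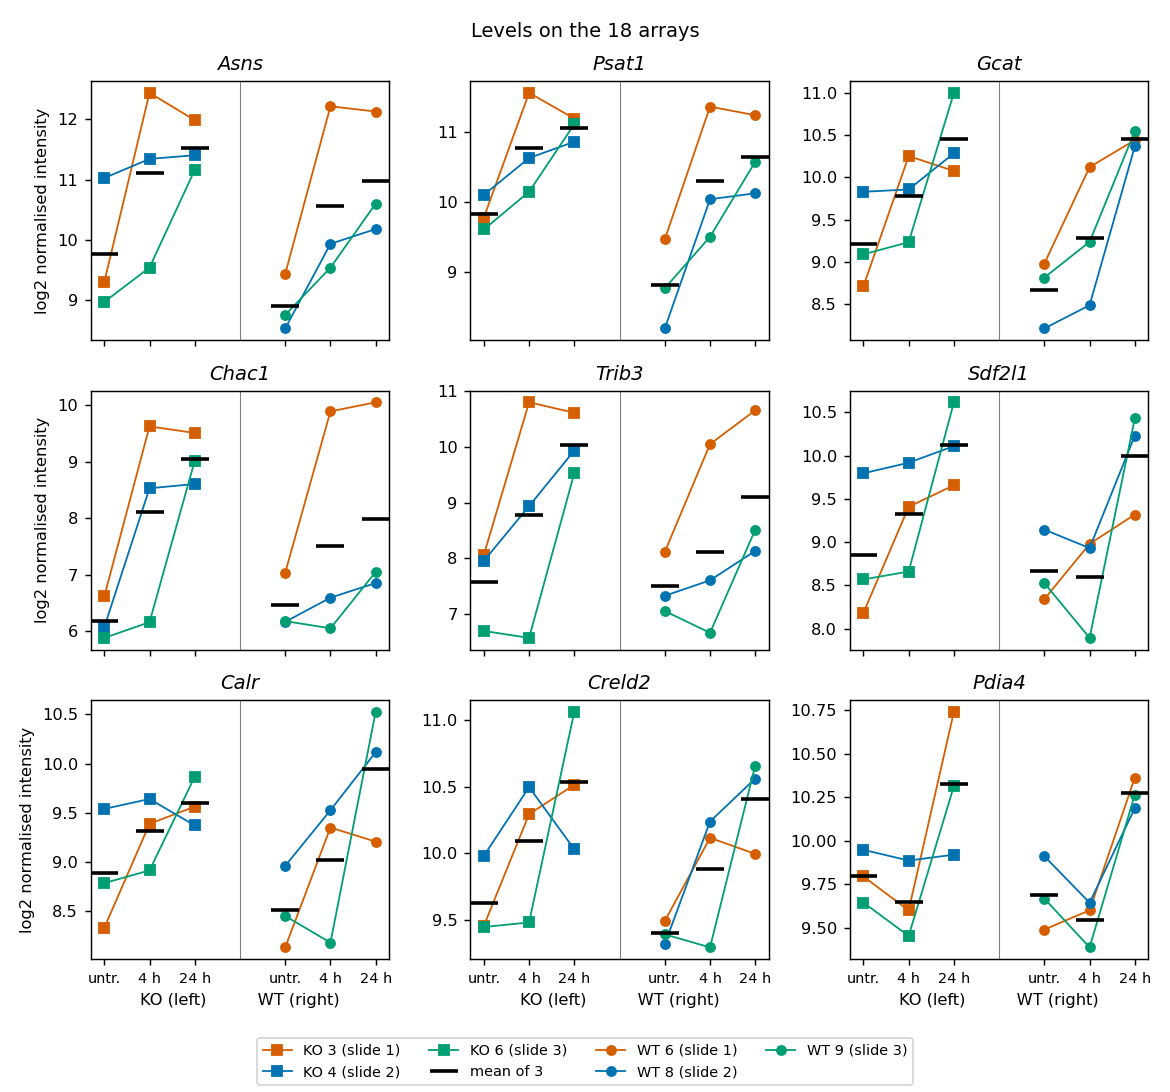
Log2 normalised intensity of 9 members on the 18 arrays, with KO cultures on the left and WT cultures on the right of each panel, untreated, 4 h and 24 h from left to right; lines join the arrays of 1 culture, colours mark slides and black bars the mean of 3. For Chac1, all 3 KO cultures were at 8.60 or above at 24 h, whereas WT 8 and WT 9 were at 6.85 and 7.05.

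Among the 7 genes for ATF4 and stress effectors the largest changes were those of Chac1 and Trib3, and they were unequal between cultures. The median was 0.52 at 4 h and 0.68 at 24 h in KO cells and 0.35 at 4 h and 0.02 at 24 h in WT cells, and 0 of 7 were called in any of these. Chac1 (probe ILMN_2617468) encodes an enzyme that degrades glutathione and is a target of ATF4. In KO cultures 3, 4 and 6, Chac1 stood at 6.61, 6.07 and 5.88 untreated, 9.62, 8.53 and 6.16 at 4 h, and 9.51, 8.60 and 9.02 at 24 h. WT cultures 6, 8 and 9 had 7.03, 6.16 and 6.18 untreated, 9.89, 6.59 and 6.05 at 4 h, and 10.05, 6.85 and 7.05 at 24 h. Among KO arrays it was above the limit on 0 of 3 untreated, 2 of 3 at 4 h and 3 of 3 at 24 h, and among WT arrays on 1, 1 and 3 of 3. At 4 h KO 3, WT 6 and KO 4 were high while KO 6, WT 8 and WT 9 stayed near their untreated levels, and at 24 h KO 6 had joined the high arrays. Chac1 passed the detection filter mainly through stimulated arrays, so the p-values of its changes against untreated cells lend no support to a rise. Relative to untreated KO cells Chac1 was at least 4.86-fold higher at 24 h (fitted change 2.85 ± 0.98, adjusted p = 0.205, 0.0273 with the replicate block). In WT cells the 24 h change was 1.52 ± 0.98 (adjusted p = 0.479), and 3.02, 0.69 and 0.87 within cultures 6, 8 and 9.

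Trib3, a pseudokinase induced by ATF4 and CHOP, had the same outline. Trib3 levels in KO cultures 3, 4 and 6 were 8.07, 7.96 and 6.70 untreated, 10.79, 8.94 and 6.58 at 4 h, and 10.60, 9.93 and 9.53 at 24 h. Its levels in WT cultures 6, 8 and 9 were 8.12, 7.33 and 7.06 untreated, 10.04, 7.61 and 6.67 at 4 h, and 10.65, 8.14 and 8.51 at 24 h. At 24 h every array was above every untreated one in KO cells and, by a narrow margin, in WT cells too. The 24 h changes were 2.44 ± 0.95 in KO cells (adjusted p = 0.261, 0.0322 with the replicate block and 0.0697 with the culture as a random block) and 1.60 ± 0.95 in WT cells (adjusted p = 0.439). The other 2 kept Trib3 probes gave smaller 24 h changes, 0.83 each in KO cells and 0.47 and 0.64 in WT cells. At 4 h the WT change of 0.60 ± 0.95 rested on culture 6, without which it was −0.06.

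Atf4 itself, which encodes the transcription factor at the centre of the amino acid response, was above the limit on every array and did not pass the test. KO cultures 3, 4 and 6 had Atf4 at 12.29, 12.39 and 12.10 untreated, 13.15, 12.78 and 12.31 at 4 h, and 12.75, 12.61 and 12.61 at 24 h. The WT arrays gave 12.52, 12.32 and 12.47 untreated, 13.01, 12.72 and 12.62 at 4 h, and 12.84, 12.02 and 12.23 at 24 h. Its 24 h arrays were above the untreated ones in KO cells and its 4 h arrays were in WT cells, while the other groups overlapped. The changes were 0.49 ± 0.22 at 4 h and 0.40 ± 0.22 at 24 h in KO cells, and 0.35 ± 0.22 at 4 h and −0.07 ± 0.22 at 24 h in WT cells, with adjusted p between 0.262 and 0.908. A second Atf4 probe gave 0.50 at 24 h in WT cells, and median scaling 0.25, so the sign of that change is not settled; control of ATF4 by translation was not measured. Ddit4, an inhibitor of mTORC1 signalling, passed with the replicate block between 24 h and 4 h in WT cells (1.38 ± 0.48, adjusted p = 0.0329). Ppp1r15a (GADD34, which returns eIF2alpha to its unphosphorylated form) passed in KO cells over the same times, also with the replicate block (−0.89 ± 0.27, adjusted p = 0.0406), and Ddit3 (CHOP) and Cebpb, a partner of ATF4, did not pass in any comparison with or without a block.

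In the RefSeq promoters the core TGATGNAA, part of the element bound by ATF4 with a C/EBP partner, was searched on both strands. It lay in Trib3, Chac1, Asns, Aars, Gars, Iars, Yars and Herpud1, that is in 2 of 7 ATF4 and stress genes, 1 of 8 amino acid enzymes, 4 of 6 tRNA synthetases, 1 of 5 sensors and 0 of 12 chaperones, against 4.51% of 27025 genes. A stretch from each of these first roles is shown with the core in capitals; in Chac1 and Aars it is on the opposite strand.
Chac1 (chr2:119351029-119351076, plus strand): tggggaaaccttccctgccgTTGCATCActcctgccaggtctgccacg
Asns (chr6:7693210-7693252, minus strand): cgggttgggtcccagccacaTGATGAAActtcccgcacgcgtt
Aars (chr8:111033710-111033757, plus strand): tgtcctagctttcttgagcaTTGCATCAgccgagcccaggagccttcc
Psat1 and Gcat, whose values are given next, held no such core in this window; Gcat held TGACGTGG, the core of the UPR element, found in 0.714% of genes.

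The amino acid and one-carbon enzymes had the largest medians of the 5 roles. All 8 measured enzymes had positive changes in both genotypes at both times, with medians of 0.82 at 4 h and 0.96 at 24 h in KO cells and 0.69 at 4 h and 0.98 at 24 h in WT cells; of the 8962 genes 4200 and 4476 were positive at 4 h and 24 h in KO cells and 4075 and 4249 in WT cells. Cth was above the limit on 0 untreated arrays and Phgdh on 0 of 3 untreated WT arrays; both passed the filter mainly through stimulated arrays, so the count of positives supports nothing for them. Gcat alone passed the test. It encodes a mitochondrial enzyme of threonine breakdown that yields glycine (probe ILMN_2777696). The KO arrays gave Gcat levels of 8.71, 9.83 and 9.09 untreated, 10.25, 9.86 and 9.23 at 4 h, and 10.08, 10.29 and 11.002 at 24 h. In WT cultures 6, 8 and 9 it was at 8.98, 8.21 and 8.81 untreated, 10.12, 8.49 and 9.24 at 4 h, and 10.44, 10.37 and 10.55 at 24 h. The 24 h arrays were above the untreated arrays in both genotypes, while 4 h arrays overlapped the untreated ones. Gcat rose at 24 h in WT cells by 1.78 ± 0.39 (SE), or 3.45-fold, with adjusted p = 0.0466 (0.02 with the replicate block). In KO cells its change was 1.24 ± 0.39 with adjusted p = 0.169. The call was lost without WT 6, 8 or 9, without KO 4 or KO 6 and without slide 1, with changes of 1.60 to 1.95.

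Psat1, which makes the precursor of serine, was above its untreated levels on every stimulated array within each genotype. In KO cultures 3, 4 and 6, Psat1 stood at 9.78, 10.10 and 9.61 untreated, 11.57, 10.63 and 10.15 at 4 h, and 11.20, 10.87 and 11.12 at 24 h. WT cultures 6, 8 and 9 had 9.46, 8.18 and 8.76 untreated, 11.37, 10.04 and 9.50 at 4 h, and 11.25, 10.13 and 10.58 at 24 h. Its changes were 0.95 ± 0.45 at 4 h and 1.23 ± 0.45 at 24 h in KO cells (adjusted p = 0.296 and 0.233), and 1.50 ± 0.45 at 4 h and 1.85 ± 0.45 at 24 h in WT cells (0.0883 and 0.0687). With the replicate block the adjusted p was 0.0399 at 24 h in KO cells (0.0633 with the culture as a random block) and 0.0135 and 0.00889 at the 2 times in WT cells.

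Asns, asparagine synthetase, varied widely between cultures. Asns levels in KO cultures 3, 4 and 6 were 9.30, 11.03 and 8.97 untreated, 12.44, 11.34 and 9.54 at 4 h, and 11.99, 11.41 and 11.16 at 24 h. Its levels in WT cultures 6, 8 and 9 were 9.43, 8.52 and 8.75 untreated, 12.22, 9.93 and 9.54 at 4 h, and 12.13, 10.18 and 10.60 at 24 h. Untreated KO 4 was already at 11.03, above 2 of the 3 WT arrays at 24 h, and the changes by 24 h were 2.69, 0.38 and 2.20 in KO cultures 3, 4 and 6. The changes at 24 h were 1.76 ± 0.77 in KO cells (adjusted p = 0.33) and 2.07 ± 0.77 in WT cells (adjusted p = 0.206). The WT call depended on the kind of block, with adjusted p = 0.041 for the replicate block, 0.0555 for the slide and 0.0624 for the culture as a random block. Of the other enzymes, Aldh18a1, of proline synthesis, passed with the replicate block at 4 h in WT cells (1.17 ± 0.37, adjusted p = 0.036). Mthfd2, of the mitochondrial folate pathway, had changes of 1.10 ± 0.33 in KO cells and 1.22 ± 0.33 in WT cells at 24 h (adjusted p = 0.146 and 0.0916). Phgdh, the first enzyme of serine synthesis, was above the limit on 0 of 3 untreated WT arrays and was at least 1.40-fold higher in WT cells at 4 h. At 24 h its WT mean was 1.25-fold above the limit of the untreated arrays. Only 2 of 3 WT arrays were above the limit at 24 h, so that fold is not a lower bound. Shmt2, a mitochondrial serine hydroxymethyltransferase, had changes of 0.83 in KO cells and 0.74 in WT cells at 24 h (0.20 and 0.36 by its other kept probe), and Cth, of cysteine synthesis, was above the limit on 4 of 18 arrays, all of them stimulated arrays of KO 3 or WT 6.

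The 8 measured tRNA synthetases had medians of 0.36 at 4 h and 0.27 at 24 h in KO cells and 0.48 at 4 h and 0.32 at 24 h in WT cells, with 7 or 8 of 8 positive in each. The 8 of 8 in KO cells at 24 h depend on the probes used, since other kept probes of Gars (−0.22), Iars (−0.07) and Lars (−0.10) were negative there. None of the 8 was called without a block. Sars, the seryl-tRNA synthetase, had the smallest adjusted p of all members in KO cells at 4 h. KO cultures 3, 4 and 6 had Sars at 8.16, 8.70 and 8.75 untreated, 9.81, 9.08 and 9.27 at 4 h, and 9.59, 9.25 and 9.27 at 24 h. The WT arrays gave 8.52, 8.12 and 8.83 untreated, 9.63, 8.83 and 8.68 at 4 h, and 9.30, 8.78 and 9.19 at 24 h. Stimulated and untreated arrays did not overlap in KO cells, and overlapped in WT cells. Its 4 h change was 0.85 ± 0.27 in KO cells (adjusted p = 0.133) and 0.56 ± 0.27 in WT cells (adjusted p = 0.267); a second probe gave 0.64 and 0.39.

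Nars, the asparaginyl-tRNA synthetase, passed at 4 h in WT cells only with the block. The KO arrays gave Nars levels of 9.88, 9.64 and 9.56 untreated, 10.40, 10.09 and 9.72 at 4 h, and 9.92, 9.78 and 10.04 at 24 h. In WT cultures 6, 8 and 9 it was at 9.50, 9.46 and 9.27 untreated, 10.53, 10.13 and 9.46 at 4 h, and 10.05, 9.69 and 9.58 at 24 h. Within WT cultures 6, 8 and 9 the 4 h changes were 1.02, 0.66 and 0.20. The 4 h change was 0.37 ± 0.23 in KO cells (adjusted p = 0.439) and 0.63 ± 0.23 in WT cells (adjusted p = 0.153, 0.0458 with the replicate block). In KO cultures 3, 4 and 6, Aars stood at 9.91, 10.38 and 10.31 untreated, 11.11, 10.83 and 10.36 at 4 h, and 10.71, 10.98 and 10.79 at 24 h. WT cultures 6, 8 and 9 had 10.40, 10.06 and 10.34 untreated, 11.24, 10.85 and 10.40 at 4 h, and 10.95, 10.43 and 10.41 at 24 h. For Aars, the alanyl-tRNA synthetase, the 4 h changes were 0.57 ± 0.23 in KO cells and 0.56 ± 0.23 in WT cells (adjusted p = 0.234 and 0.198). Wars, the tryptophanyl-tRNA synthetase, was higher at 4 h and lower again at 24 h in WT cells, with adjusted p = 0.0367 for 4 h against untreated (0.50 ± 0.18) and 0.0292 for 24 h against 4 h (−0.47 ± 0.18), both with the replicate block. Against untreated WT cells the probe used gave 0.03 at 24 h. The other kept Wars probes gave 0.51 to 0.64 at 4 h and 0.22 to 0.37 at 24 h there. Gars and Iars, Lars and Mars1 (for glycine, isoleucine, leucine and methionine) had changes between −0.21 and 0.46 over the 4 stimulation comparisons.

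**Figure D3:**
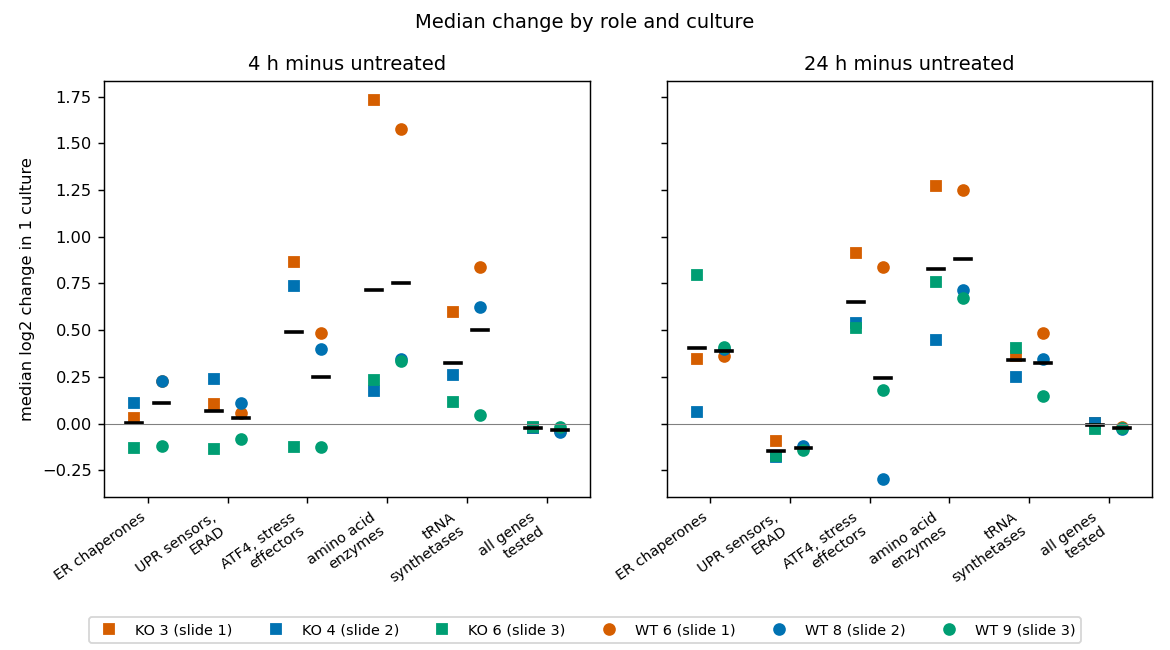
Median log2 change of each role, and of all genes tested, in each culture at 4 h and 24 h, with squares for KO cultures, circles for WT cultures, colours for slides and bars for the mean of 3 cultures. At 4 h the amino acid enzymes stood at 1.73 in KO 3 and 1.58 in WT 6 and at 0.18 to 0.35 in the other 4 cultures.

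In both genotypes the median 4 h change of the amino acid enzymes was larger in the culture of slide 1 than in the other cultures, a pattern chosen after the values were seen. Their 4 h medians were 1.73, 0.18 and 0.23 in KO cultures 3, 4 and 6 and 1.58, 0.35 and 0.34 in WT cultures 6, 8 and 9. At 24 h the corresponding medians were 1.27, 0.45 and 0.76 in KO cultures and 1.25, 0.71 and 0.67 in WT cultures. At 4 h both cultures of slide 1 had larger changes than all 4 other cultures for 16 of the 41 members, against 13.7% of all genes. These were 6 of 8 amino acid enzymes, 4 of 8 synthetases, 4 of 7 ATF4 and stress genes, 2 of 12 chaperones and 0 of 6 sensors. Cth is one of the 6 enzymes at 4 h and of those at 24 h, and it passed the detection filter only through stimulated arrays of slide 1, so its place in both counts was set by the filter. At 24 h the count was 9 of 41, against 15.3% of all genes, 5 of them amino acid enzymes. Mthfd2, for example, had 4 h changes of 1.82 in KO 3 and 1.95 in WT 6, and of −0.04 to 0.26 in the other 4 cultures. Shmt2 had changes of 2.30 in KO 3 and 1.38 in WT 6 against 0.20 to 0.33. Without slide 1 the members' median at 4 h was 0.12 in KO cells and 0.22 in WT cells, and 0.38 and 0.27 at 24 h, with 0 members called in each. Slide 1 differs from the others in its cultures as well as in its hybridisation, which cannot be told apart.

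Genotype was compared within each condition, between the responses and on culture means. No member was called as different between KO and WT cells: 0 of 41 untreated (0.257% of all genes), at 4 h (0.19%) and at 24 h (0.279%), 0 on culture means (0.123%) and 0 for the difference between the responses at 4 h (0%) and at 24 h (0%). Unadjusted p was under 0.05 for 2, 0 and 0 members in the 3 conditions, against 5.86%, 5.00% and 5.03% of all genes, and for 0 on culture means and in both differences of responses. With the slide as a block the counts were again 0 untreated (0.513% of all genes), at 4 h (0.424%), at 24 h (0.569%), on culture means (0.759%) and for both differences of responses (0% each). The median difference over the members was 0.06 untreated, 0.06 at 4 h and 0.10 at 24 h, where that of all genes was −0.02, −0.01 and −0.02. With standard errors of 0.98 for Chac1 and 0.95 for Trib3, differences of the size seen in these genes were not detectable with 3 arrays a group.

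The nearest to a genotype difference in untreated cells was Psat1. Untreated KO arrays were at 9.78, 10.10 and 9.61 and untreated WT arrays at 9.46, 8.18 and 8.76, without overlap. The difference was 1.03 ± 0.45 (adjusted p = 0.816, 0.222 with the slide block), and 0.31, 1.92 and 0.85 on slides 1, 2 and 3. Slide 2 also gave the largest differences in untreated Asns (2.50, against −0.13 and 0.22 on slides 1 and 3) and Gcat (1.62, against −0.27 and 0.28), where KO 4 was high. WT 8, on the same slide, was the lowest untreated WT array for Psat1 (8.18), Asns (8.52) and Gcat (8.21).

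At 24 h the ATF4 and stress genes had the largest median genotype difference among the roles. It was 0.29, positive in 7 of 7 genes, where 4209 of all 8962 genes were positive. On slides 1, 2 and 3 it was −0.04, 0.71 and 0.38, with 3, 7 and 6 of 7 positive. All 8 amino acid enzymes were positive at 24 h too, with a median of 0.13. On slides 1, 2 and 3 the median for these enzymes was −0.15, 0.28 and 0.46, with 1, 6 and 8 of 8 positive. One of the 8, Cth, was above the limit on only 1 of 3 arrays of each genotype at 24 h. The KO response of the ATF4 and stress genes exceeded the WT response by a median of 0.54, again in 7 of 7. Over all genes that median was 0.01, with 4692 of 8962 positive. On slides 1, 2 and 3 the median difference of responses for this role was 0.14, 1.10 and 0.75. In untreated cells the median KO minus WT difference of this role was −0.18, positive in 3 of 7 genes. The difference of responses therefore includes the lower untreated KO levels. Chac1, one of the 7, was above the limit on 0 of 3 untreated KO arrays. For Chac1 at 24 h the KO level minus the WT level was −0.54 on slide 1 and 1.75 and 1.97 on slides 2 and 3 (1.06 ± 0.98, adjusted p = 1). For Trib3 it was −0.04, 1.79 and 1.01 (0.92 ± 0.95).

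**Figure D4:**
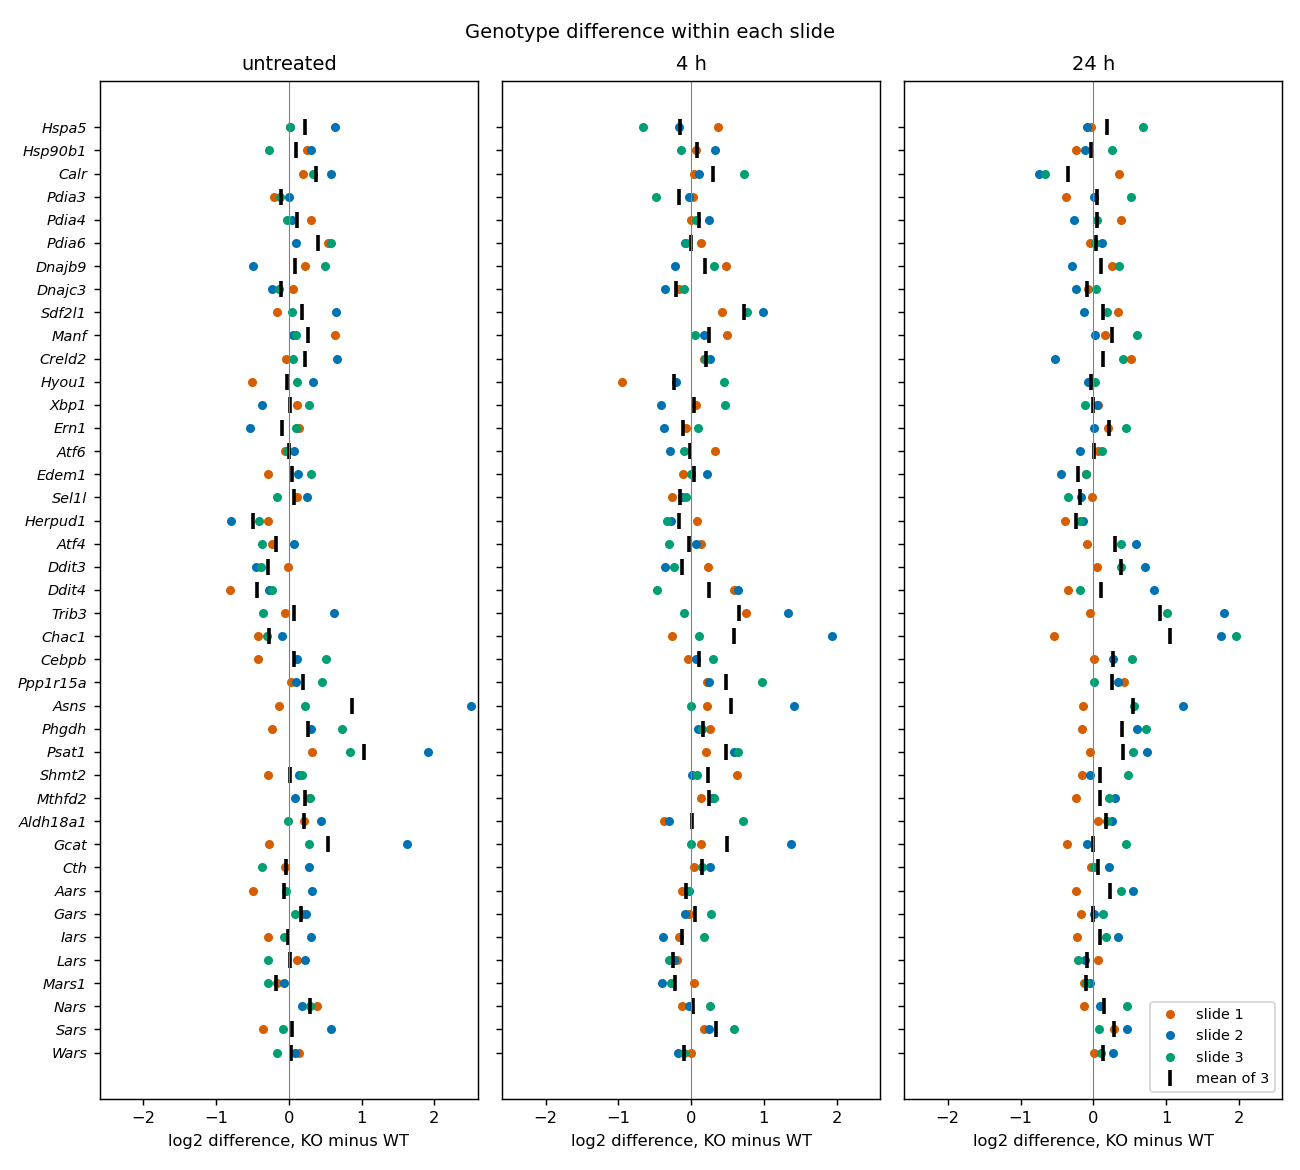
Log2 difference KO minus WT for the 41 measured members within slides 1, 2 and 3 (points), with the mean of 3 (bars), in untreated, 4 h and 24 h cells. Most members lie near 0 in all 3 panels, with Asns at 2.50 on slide 2 in untreated cells and Chac1 at 1.75 and 1.97 on slides 2 and 3 at 24 h.

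Most other genes of these pathways, from lists that exclude the members, were not called. Without a block the shares of all genes called at 4 h and 24 h were 0.815% and 0.257% in KO cells and 1.79% and 0.692% in WT cells. Between 24 h and 4 h they were 0.748% in KO cells and 5.57% in WT cells. With the replicate block 4.69% and 3.17% were called at 4 h and 24 h in KO cells, and 8.52% and 4.69% in WT cells. Between 24 h and 4 h that block called 6.4% in KO cells and 17.8% in WT cells. Of 50 measured among 60 other UPR and ER folding genes, 0 were called at 4 h or 24 h in either genotype without a block, with medians of 0.00 at 4 h and 0.13 at 24 h in KO cells and 0.07 at 4 h and 0.13 at 24 h in WT cells. With the replicate block Prkcsh was called at 4 h in KO cells (higher). In WT cells Creb3l2 and Ero1a (higher) and Dnajc10 and Edem2 (lower) were called at 4 h and Calu (higher) at 24 h. The 4 of 50 at 4 h in WT cells are near the share of all genes, and the other counts are below it. Without that block, between 24 h and 4 h in WT cells, Dnajc10, an ER disulfide reductase, rose (0.94 ± 0.24, adjusted p = 0.0343) and Txndc11 fell (−0.97 ± 0.21, adjusted p = 0.0195). With the block 4 of the 50 were called higher and 2 lower between these times in WT cells, and 1 higher and 2 lower in KO cells. Of 19 measured among 31 other amino acid response genes, 15 and 16 had positive changes at 4 h and 24 h in KO cells and 16 and 16 in WT cells, with 0 called against untreated without a block. With the replicate block Slc1a5, a glutamine transporter, rose at 4 h by 1.04 in KO cells (adjusted p = 0.0286) and by 1.05 in WT cells (adjusted p = 0.0222). Without it Slc1a5 was lower at 24 h than at 4 h in KO cells (−1.32 ± 0.27, adjusted p = 0.0406) and in WT cells (−0.95 ± 0.27, adjusted p = 0.05). The block added Slc3a2 as lower between these times in WT cells (−0.58, adjusted p = 0.0328). Of 13 measured among 14 other cytosolic synthetases and their scaffold proteins, Eef1e1 (1.01 ± 0.23, adjusted p = 0.0389) and Rars, the arginyl-tRNA synthetase (0.85 ± 0.17, adjusted p = 0.024), rose at 4 h in WT cells, and Rars fell between 4 h and 24 h (−0.68 ± 0.17, adjusted p = 0.0358). These 2 of 13 at 4 h in WT cells were above the share of all genes (1.79%), a count that rests on 2 genes. The replicate block added Eprs, the glutamyl-prolyl-tRNA synthetase, at 4 h (0.55, adjusted p = 0.048) and 24 h (0.62, adjusted p = 0.0382) in KO cells and at 4 h in WT cells (0.51, adjusted p = 0.0458). That made 3 of 13 at 4 h in WT cells, against 8.52% of all genes, and 1 of 13 at each time in KO cells. Between 24 h and 4 h in WT cells the replicate block also called Tars lower (−0.57, adjusted p = 0.0361). The 10 measured of 17 mitochondrial synthetases had medians of −0.23 at 4 h in KO cells and −0.28 in WT cells, with 0 called without a block; with the replicate block Fars2 fell at 4 h in WT cells (−0.73, adjusted p = 0.0382). Between 4 h and 24 h in WT cells the same block called Fars2 as rising again (0.70, adjusted p = 0.028). It also called Cars2 higher and Ears2 lower between these times. No gene of the 4 lists was called between genotypes without a block.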

How the data were processed

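The authors deposited linear probe intensities without normalisation and a table of log2 values; per the labels, RNA was amplified and labelled with a commercial kit for Illumina arrays. No source used here names the scanner software. Those deposited log2 values equal quantile-normalised log2 intensities without background correction (largest difference 0.000556), as found by comparison.

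The intensities were background-corrected with normexp (offset 50), quantile-normalised and log2-transformed in limma 3.58.1 (R 4.3.3). Since no detection p-values came with the 45281 probes, a limit per array was set at the level exceeded by a share of 0.01 of 1504 olfactory and vomeronasal receptor probes, and probes above it on at least 3 arrays were kept (16669). This limit was chosen after exploratory fits in an earlier analysis. Of the probes 34885 had 1 gene symbol, 18 several and 10378 none. Limma fitted 6 group means to all 18 arrays, with eBayes and Benjamini-Hochberg adjustment over 8962 genes. The fit was tested on simulated data with independent noise on each array. Those data held no shared deviation within cultures or slides, so the test does not bear on its effect. Where no array of a group was above the limit, a fold was given against that limit. It is a bound only where all arrays of the other group were above the limit.

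Values on every array are given for members past the threshold and for the 3 members of each role whose 4 stimulation changes had the largest absolute mean, with further members added where a result turned on them. Members and lists were chosen with earlier results of these data known. Same-numbered arrays of a genotype deviated together in all 18 pairs (0.134 to 0.625, median 0.362), so the culture was also fitted as a replicate block. Pairs of the other genotype on the same slide had a median of 0.328, so this deviation is not particular to a culture. Other settings were the authors' log2 values, median scaling, no filter on dim probes, the slide as a block, the culture as a random block and each culture left out; leaving out slide 1 was added after seeing the data.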

Additional observations from a re-analysis of the deposited data

How the results depend on the processing

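With the replicate block the members called were 3 at 24 h and 2 between 24 h and 4 h in KO cells, and 4 at 4 h, 3 at 24 h and 7 between 24 h and 4 h in WT cells. The slide block gave 3 and 4 in KO cells and 4, 4 and 8 in WT cells. The random block gave 1 at 4 h, 1 at 24 h and 4 between the times in KO cells and 4, 4 and 7 in WT cells. Of all 8962 genes it called 509, 309 and 527 in KO cells and 815, 413 and 1550 in WT cells. Median scaling, no filter on dim probes and leaving out slide 1 each left 0 called at 24 h and 0 between 24 h and 4 h in WT cells. Median scaling moved the members' 24 h median to 0.62 in KO cells and 0.69 in WT cells, the KO minus WT median at 4 h to 0.10 (0.10 without slide 1), and the median difference of responses at 24 h to −0.11. It turned the 4 h changes of Pdia4 positive in KO (0.0053) and WT cells (0.058), that of Sdf2l1 in WT cells (0.11), those of Xbp1 at 4 h (0.043) and 24 h in KO cells (0.18) and at 24 h in WT cells (0.22), and that of Atf4 at 24 h in WT cells (0.25). The cause was not tested.

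Leaving out single cultures gave 0 to 1 members called at 4 h, at 24 h and between them in WT cells, KO minus WT medians of −0.12 to 0.22 at 4 h and −0.018 to 0.16 on culture means. Signs turned for Sdf2l1 at 4 h in WT cells (−0.42 to 0.21), Xbp1 at 24 h in KO (−0.16 to 0.033) and WT cells (−0.15 to 0.063), Atf4 at 24 h in WT cells (−0.27 to 0.042) and Trib3 at 4 h in WT cells (−0.056 to 1.10, −0.056 without slide 1). No member was called between genotypes in any of these fits. Signals near the detection limit bound what can be said of Chac1, Cth, Atf6, Hyou1, Trib3 and Phgdh.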
